A study of Mus musculus with 24 samples.

Results

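Genes that write, maintain, remove or act alongside DNA methylation were followed in the blood of irradiated and unirradiated mice. They were *Dnmt1*, *Uhrf1*, *Dnmt3a*, *Dnmt3b*, *Tet1*, *Tet2*, *Tet3*, *Asxl1* and *Ezh2*, chosen by name as the 9 genes whose symbols the array files give to 18 probes of the 39429 that are not controls. Whole-blood RNA came from 24 male C57BL/6J mice, one mouse per single-dye array. The 4 groups of 6 were young unirradiated, young irradiated, old unirradiated and old irradiated mice, where young mice were 2 months and old mice 21 months old, irradiated mice had received 4 Gy of x-rays to the whole body, and unirradiated mice had been sham-irradiated. Blood was drawn 24 h later from every mouse, and globin RNA was reduced in all samples. A level is given as the log2 signal of a probe above the median of all spots on the same array. Because probes differ in brightness, a level was compared only with the same probe on other arrays.

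DNA methylation is copied at each cell division by the maintenance methyltransferase DNMT1, which the hemimethylated-DNA reader UHRF1 brings to newly replicated DNA. DNMT3A and DNMT3B place methyl groups on unmethylated DNA, and the TET dioxygenases TET1, TET2 and TET3 oxidise methylcytosine as the first step of its removal. ASXL1 is a partner of the histone H2A deubiquitinase BAP1, and EZH2 is the catalytic subunit of Polycomb repressive complex 2, which methylates histone H3. In human blood, *DNMT3A*, *TET2* and *ASXL1* are the genes most often mutated in clonal hematopoiesis, the age-related expansion of mutated blood stem cell clones. The arrays measured RNA and carried no information on mutations or on DNA methylation itself.

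The results turned on the probes of 5 of the genes, and the first 30 of the 60 bases of each are shown 5′ to 3′ with CpG dinucleotides in capitals. Several probes of 1 gene read different stretches of its transcripts, which matters for *Dnmt3b* and *Tet1*. Coordinates are those of the array design (mm9), which the exon or untranslated region of a probe could not be read from, since no mm9 annotation was used here.
Dnmt1 A_51_P195573, chr9:20711973-20712341, minus strand: tgtccagtgctCGggagagCGcatcagctg
Uhrf1 A_55_P2035286, chr17:56462770-56462829, plus strand: tgtgtctcatggaaactaaaccatttacta
Ezh2 A_55_P2041397, chr6:47480307-47480366, minus strand: gctgcaaagtgttttgtaccagtgagtttt
Dnmt3b A_55_P1975903, chr2:153512098-153512157, plus strand: tgtttgcccccttgaaggaccactttgcct
Dnmt3b A_55_P2008874, chr2:153512991-153513050, plus strand: tcaggtccccagaaccccctagttcctcat
Dnmt3b A_55_P2130535, chr2:153513403-153513462, plus strand: gtgcaaagatgacagatgcccagagtttac
Tet1 A_51_P512172, chr10:62276042-62276101, minus strand: gaatctacagacttctgtcccctgcaggct
Tet1 A_55_P2122997, chr10:62274448-62274507, minus strand: ctgtactcaaataacacaCGgcttctgttc
Tet1 A_55_P2123002, chr10:62301856-62301915, minus strand: taatcacatcaaCGcCGaggtcaggaatgc
The span of the *Dnmt1* probe is 369 bases, longer than the probe. The 3 *Dnmt3b* probes lie within 1365 bases of each other and the 3 *Tet1* probes within 27468 bases.

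Promoter sequence was taken from RefSeq (GRCm38.p6) as windows of 300 bases, 250 before and 50 after an annotated transcription start. All 9 genes matched, with 14 windows. The windows were searched on both strands for the E2F site written as TTTCCCGC, TTTCGCGC, TTTGCCGC or TTTGGCGC, the element that cell cycle transcription factors of the E2F family are known to bind. Among all 32851 windows, 2.26% held at least 1 match. Of the 14 windows of the 9 genes, 3 held one, and these belonged to *Dnmt1*, *Uhrf1* and *Ezh2*. These are the genes whose main (brightest) probes were downregulated in irradiated young mice. Other probes of *Dnmt3b* (A_55_P2130535, -0.76, and A_55_P2008874, -0.85) and *Tet1* (A_55_P2122997, -1.92) were also called as lower there. Neither of these genes had a match. The 250 bases before those starts are shown with the matches in capitals, followed by the 30-base stretches around the matches that lie after the start.
Dnmt1 upstream, chr9:20952624-20952873, minus strand: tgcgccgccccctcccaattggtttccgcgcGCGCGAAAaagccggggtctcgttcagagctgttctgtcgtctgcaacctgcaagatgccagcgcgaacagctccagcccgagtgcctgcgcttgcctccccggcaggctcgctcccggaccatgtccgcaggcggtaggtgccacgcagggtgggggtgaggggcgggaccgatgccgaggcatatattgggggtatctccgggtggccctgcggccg
Uhrf1 upstream, chr17:56304063-56304312, plus strand: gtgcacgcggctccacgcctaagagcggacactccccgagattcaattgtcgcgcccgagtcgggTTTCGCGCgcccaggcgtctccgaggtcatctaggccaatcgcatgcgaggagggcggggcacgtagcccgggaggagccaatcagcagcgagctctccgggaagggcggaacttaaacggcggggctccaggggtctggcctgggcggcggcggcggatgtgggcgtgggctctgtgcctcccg
Ezh2 upstream, chr6:47595031-47595280, minus strand: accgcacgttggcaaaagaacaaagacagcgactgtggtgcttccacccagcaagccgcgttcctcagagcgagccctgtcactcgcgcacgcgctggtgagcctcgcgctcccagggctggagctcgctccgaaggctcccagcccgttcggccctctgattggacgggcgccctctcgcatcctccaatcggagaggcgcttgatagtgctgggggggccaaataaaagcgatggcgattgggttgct
Dnmt1 33 bases after the start, chr9:20952574-20952603, minus strand: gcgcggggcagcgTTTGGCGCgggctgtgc
Ezh2 3 bases after the start, chr6:47595009-47595038, minus strand: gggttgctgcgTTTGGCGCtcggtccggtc
These 3 windows held 33, 33 and 31 CpG dinucleotides, against a median of 7 over all windows. *Dnmt3a* and *Tet2* had windows with more, up to 47 and 57, and no E2F match. The cell cycle homology element TTTGAA was in 17.9% of all windows and in 3 of the 14, 1 each of *Dnmt1*, *Dnmt3b* and *Asxl1*, the *Dnmt1* one at another start than the window shown. A match of letters is a description of the sequence and says nothing about binding in these mice.

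Between 43.9% and 64.4% of the spots of an array were well above background, and the number of arrays limits the precision. Genes that mark red cell precursors, platelets, neutrophils and B cells were above background in every group, as blood should give. Old irradiated arrays 4 and 6 stood apart. Their median signals of 8.66 and 8.84 were the lowest of 24, where the others had 14.4 to 44.8. Of 9021 genes that separated unirradiated old from unirradiated young mice, 77.3% and 77.2% lay nearer to the young mean on these 2 arrays, against 32.1% to 35.4% on the other old irradiated arrays and 64.5% to 80.2% on the young irradiated ones. In this they went against their labelled group. The 75th percentile of their spots lay 2.97 above the median (log2) on both, against 2.96 to 3.16 on the young arrays and 3.43 to 3.69 on the other old ones. The shares nearer to the young mean rest on the median scaling and were not recomputed under another. Whether the labels of arrays 4 and 6 are right was not tested. For the main probes of the 9 genes, values without both arrays are given where a call or a direction changed, and counts of the gene lists without them stand beside those with all arrays. Hepatocyte markers, which blood should lack, had a mean level over 5 on 7 arrays: young unirradiated 5, young irradiated 2, 4 and 5, and old irradiated 2, 3 and 5. All 12 young arrays were scanned on one day and all 12 old ones on another, so age and scan day cannot be told apart.

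The main probes of 8 of the 9 genes passed every filter, so 8 entered the comparisons across 17802 genes. *Dnmt3a* did not, because only 4 of its arrays differed 1.5-fold from the gene's median where 5 were required, and its values come from a fit without that filter. Each main probe was well above background on all 24 arrays.

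**Figure D1:**
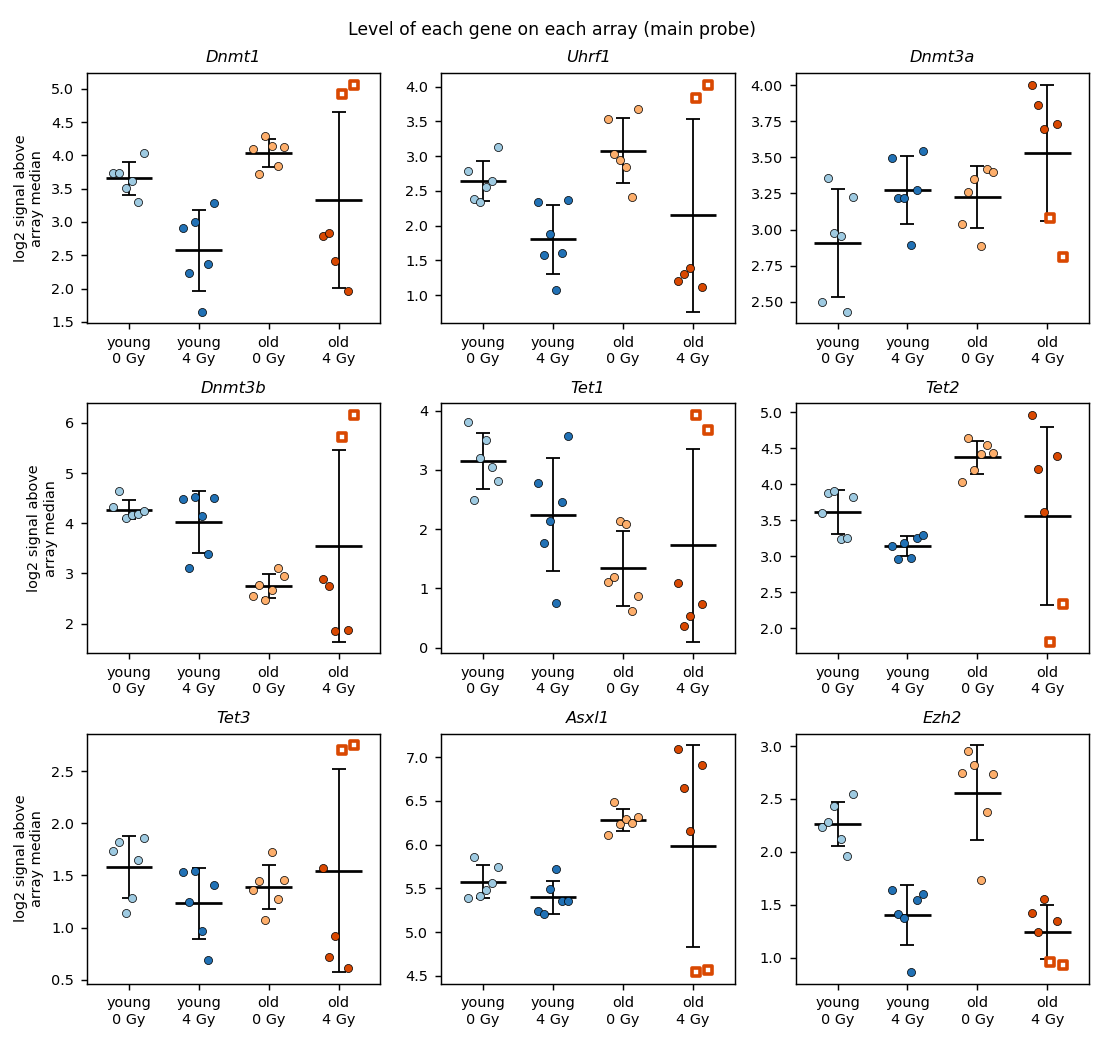
Level of each of the 9 genes on each of 24 arrays (log2 signal above the array median, main probe), by group of 6 mice, with the mean and SD as bars and old irradiated arrays 4 and 6 as open squares. *Dnmt1* and *Ezh2* on every young irradiated array sit below every young unirradiated one, and the open squares lie at the edge of the old irradiated group for all 9 genes.

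The first comparison asked how the genes responded to 4 Gy in young mice. *Dnmt1*, *Uhrf1* and *Ezh2* were downregulated, between 1.78-fold and 2.12-fold, and no gene of the 9 was called as upregulated. Over all genes tested, 35.4% were differentially expressed (DEGs, p below 0.005 and adjusted p below 0.05) and 21.1% were downregulated DEGs. The 3 downregulated genes of 8 tested stand beside that background. *Dnmt1* lay at 3.29, 3.67 and 4.04 (lowest, median and highest) in unirradiated and at 1.65, 2.64 and 3.28 in irradiated young mice. The highest irradiated mouse was thus just under the lowest unirradiated one. The difference was 2.12-fold, or -1.08 on the log2 scale (SE 0.25, adjusted p = 0.0038). In whole blood, fewer cells of a type and less RNA per cell cannot be told apart.

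*Ezh2* gave the smallest p-value of the 9 in young mice. It lay at 1.96, 2.26 and 2.55 in unirradiated and at 0.86, 1.48 and 1.64 in irradiated young mice, again without overlap. The fall was by 0.86 (SE 0.16, adjusted p = 9.5e-04), or 1.81-fold. Groups without overlap were thus found for 2 of the 8 genes, where 24.7% of all genes tested had them. *Uhrf1* lay at 2.35, 2.60 and 3.12 in unirradiated and at 1.07, 1.74 and 2.36 in irradiated young mice, and only the extreme arrays of the groups crossed. It fell by 0.83 (SE 0.23, adjusted p = 0.0095), or 1.78-fold, with a p of 0.0030 near the threshold, and 8 of the 12 fits that left out 1 array lost the call (differences of -0.95 to -0.69 over the 12).

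Among the demethylases, no *Tet* gene passed the thresholds at its main probe in young mice. *Tet2* had a level of 3.24, 3.72 and 3.90 in unirradiated and 2.97, 3.17 and 3.29 in irradiated mice, with overlap. Its difference was -0.48 (SE 0.16, limma adjusted p = 0.024), and the unadjusted p of 0.0094 missed the threshold. *Tet1* was the most scattered gene, at 2.49, 3.13 and 3.81 against 0.76, 2.30 and 3.57 (difference -0.90, SE 0.39, adjusted p = 0.078). *Tet3* differed by -0.35 (SE 0.19), *Dnmt3b* by -0.25 (SE 0.25) and *Asxl1* by -0.18 (SE 0.14), none past the thresholds. The median difference of the 8 genes was -0.66, beside -0.20 over all genes tested.

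Young irradiated arrays 2, 4 and 5 carried hepatocyte signal, and *Dnmt1* on them was 2.23, 1.65 and 2.36, below the 2.91, 3.01 and 3.28 of the others. Without the 4 young arrays of high hepatocyte signal, *Dnmt1* fell by 0.66 (SE 0.17, adjusted p = 0.0098) and *Ezh2* by 0.79 (SE 0.15, adjusted p = 0.0028), and *Uhrf1* differed by -0.45 (adjusted p = 0.12). Slide 2 held 2 arrays of either group, and within it the differences were -1.09 for *Dnmt1*, -0.93 for *Uhrf1* and -0.73 for *Ezh2*, with no overlap. *Tet1*, *Tet2*, *Tet3* and *Asxl1* had no overlap on this slide either. The share of all genes without overlap in 2 against 2 arrays was not computed. With slide as a fixed factor, which leaves only the contrast within slide 2, none of *Dnmt1*, *Uhrf1* and *Ezh2* was called (adjusted p = 0.16, 0.16 and 0.14).

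The same question was asked in old mice. With all 6 irradiated mice, *Ezh2* was the only one of the 8 genes called, where 24.9% of all genes were DEGs and 17.4% were downregulated DEGs. Of all genes called, 30.1% were higher, a share that was 48.0% with arrays scaled to the 75th percentile and 52.0% in the deposited table. *Ezh2* lay at 1.73, 2.74 and 2.95 in unirradiated and at 0.93, 1.29 and 1.55 in irradiated old mice. The groups did not overlap, as for 22.5% of all genes, and arrays 4 and 6 had the lowest values, 0.95 and 0.93. The fall was by 1.32 (SE 0.26, adjusted p = 0.0026), or 2.49-fold.

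For the maintenance pair, the old irradiated group was split. *Dnmt1* lay between 3.72 and 4.29 in unirradiated old mice, between 1.97 and 2.84 on 4 irradiated arrays, and at 4.92 and 5.06 on arrays 4 and 6. *Uhrf1* showed the same split, with 2.41 to 3.68 in unirradiated mice, 1.12 to 1.39 on the 4 arrays, and 3.84 and 4.03 on arrays 4 and 6. The 4 arrays were below every unirradiated old mouse for both genes, and arrays 4 and 6 were above every one. With all 6 arrays neither gene passed (*Dnmt1* difference -0.70, SE 0.51, adjusted p = 0.30, and *Uhrf1* difference -0.93, SE 0.55, adjusted p = 0.20).

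Without arrays 4 and 6, 3 of the 8 genes were called in old mice, *Dnmt1*, *Uhrf1* and *Ezh2*, the genes called in young mice, where 34.4% of all genes were called. *Dnmt1* fell by 1.53 (SE 0.21, adjusted p = 3.5e-04, 2.89-fold), *Uhrf1* by 1.82 (SE 0.24, adjusted p = 3.2e-04, 3.54-fold) and *Ezh2* by 1.17 (SE 0.24, adjusted p = 0.0024, 2.25-fold). Of these 4 irradiated arrays, 3 were those with high hepatocyte signal. The array that had little of it, old irradiated 1, gave 2.79 for *Dnmt1*, 1.20 for *Uhrf1* and 1.43 for *Ezh2*, each below every unirradiated old mouse. Without the 3 arrays of high hepatocyte signal, so that arrays 1, 4 and 6 were left, *Dnmt1* differed by 0.22 (adjusted p = 0.69), *Uhrf1* by -0.052 (adjusted p = 0.94) and *Ezh2* by -1.46 (SE 0.33, adjusted p = 0.0041, called), where 40.3% of all genes were called. The old mice thus gave the fall of *Ezh2* with either set of arrays left out, and that of *Dnmt1* and *Uhrf1* only without arrays 4 and 6. Within slide 5, which held 2 old arrays of either group and neither array 4 nor 6, the differences were -1.17, -1.80 and -1.23, without overlap. *Dnmt3a*, *Dnmt3b* and *Asxl1* had no overlap on this slide either, and the share of all genes was not computed. With slide as a fixed factor over all 12 old arrays, *Ezh2* was not called (-1.23, adjusted p = 0.18).

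**Figure D2:**
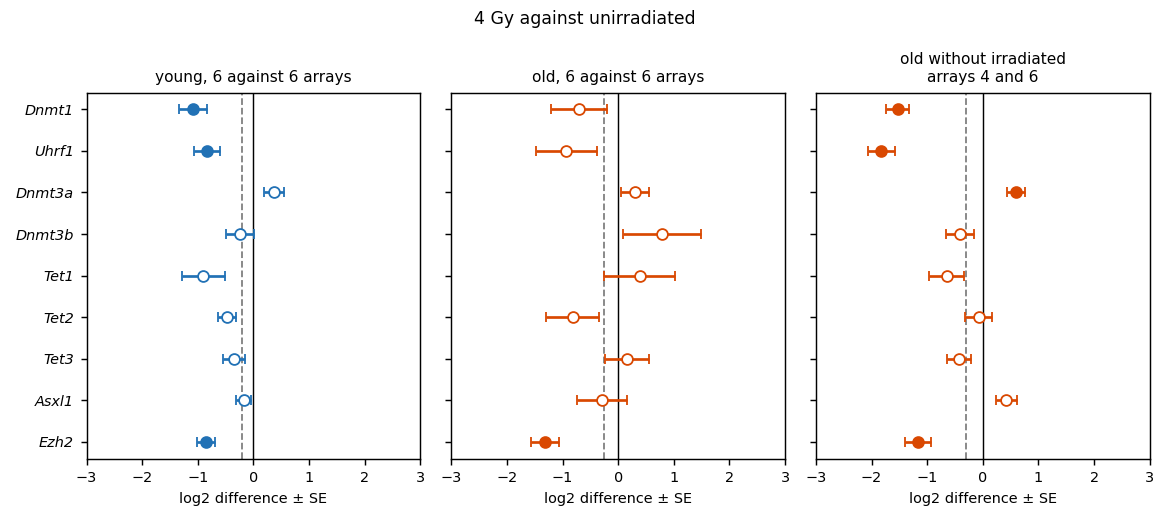
Difference between irradiated and unirradiated mice (log2, with SE) for each gene in young mice, in old mice and in old mice without irradiated arrays 4 and 6, where filled points passed both thresholds and the dashed line is the median of all genes tested. *Dnmt1*, *Uhrf1* and *Ezh2* are left of the dashed line in all 3 panels, and *Dnmt3a*, from the fit without the 1.5-fold filter, is right of 0.

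The other members moved with arrays 4 and 6 as well. *Dnmt3b* at its main probe was 5.72 and 6.16 on these arrays against 1.86 to 2.90 on the other 4, *Tet1* was 3.93 and 3.68 against 0.37 to 1.10, and *Tet3* was 2.71 and 2.75 against 0.61 to 1.57. *Tet2* and *Asxl1* went the other way, at 1.81 and 2.35 against 3.62 to 4.97 and at 4.54 and 4.56 against 6.16 to 7.09. None of these 5 was called in old mice with or without the 2 arrays, and leaving them out turned the difference from 0.79 to -0.41 for *Dnmt3b*, from 0.39 to -0.65 for *Tet1*, from 0.16 to -0.44 for *Tet3* and from -0.29 to 0.42 for *Asxl1*. Without the arrays of high hepatocyte signal instead, *Dnmt3b* was called as 4.51-fold higher in irradiated old mice (2.17, SE 0.59, adjusted p = 0.0099), with arrays 4 and 6 as 2 of the 3 irradiated arrays and the groups overlapping. On the same arrays the red cell precursor markers had mean levels of 7.46 and 7.55 and the cell cycle genes 3.31 and 3.32, against 4.28 to 5.33 and 1.99 to 2.21 on the other 4. The part of these in the results was not tested.

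*Dnmt3a*, the de novo methyltransferase, had the only difference above 0 in young mice. It lay at 2.43, 2.97 and 3.36 in unirradiated and 2.89, 3.24 and 3.55 in irradiated young mice, and at 2.89, 3.30 and 3.42 against 2.81, 3.72 and 4.00 in old mice. The groups overlapped in both ages. The differences were 0.37 (SE 0.19, adjusted p = 0.13) and 0.30 (SE 0.25, adjusted p = 0.36). Without arrays 4 and 6, the old irradiated mice lay at 3.70 to 4.00, above every unirradiated old mouse, with a difference of 0.60 (SE 0.16, adjusted p = 0.011) that passed both thresholds in this fit.

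Whether the response differed between ages was tested as the interaction of age and radiation over 24 arrays. No member was called, beside 0% of all genes (limma, of which 4191 had an unadjusted p under 0.05, and the random variance test also called 0). Without the arrays of high hepatocyte signal 3238 genes, or 18.2%, were called and again no member. That fit kept only arrays 1, 4 and 6 of the old irradiated group. In it the main probe of *Dnmt3b* was at 1.96 (SE 0.68, adjusted p = 0.039, which missed the p threshold) and that of *Tet1* at 1.90 (SE 0.77, adjusted p = 0.067). Without arrays 4 and 6 instead, 27 genes, or 0.15%, were called and no member. The response of old mice minus that of young mice was 0.38 (SE 0.58) for *Dnmt1*, -0.10 (SE 0.62) for *Uhrf1* and -0.46 (SE 0.29) for *Ezh2*. Without arrays 4 and 6 it was -0.45 (SE 0.34), -0.99 (SE 0.34, adjusted p = 0.19) and -0.31 (SE 0.28). The data therefore do not show that the fall of these genes differed between ages, nor that it was the same.

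The next comparison took the unirradiated mice and asked which genes differed between ages. *Tet1* and *Dnmt3b* were lower in old mice, and *Tet2* and *Asxl1* were higher, so 4 of the 8 genes were called. This is set against 63.8% of all genes called and 15.4% called as lower. The median of all genes was itself 0.63 higher in old mice on this scale, and 75.8% of the genes called were higher, a share that became 28.9% with arrays scaled to the 75th percentile, 47.0% after quantile normalization and 17.2% in the table that the authors deposited. A small difference upwards is thus a matter of scaling. Relative to the median of all genes, *Tet2* was 0.13 and *Asxl1* 0.075 higher, and *Tet1* 2.43 and *Dnmt3b* 2.15 lower.

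*Tet1* lay at 2.49, 3.13 and 3.81 in young and at 0.63, 1.15 and 2.14 in old unirradiated mice. Every old mouse was below every young one, and the difference was 3.50-fold (-1.81, SE 0.29, adjusted p = 1.4e-04). It stayed negative under the 16 other settings, from -2.36 to -1.05, and normexp background correction was the only one under which it was not called. *Dnmt3b* at its main probe lay at 4.10, 4.21 and 4.63 in young and at 2.47, 2.71 and 3.12 in old mice, a 2.87-fold difference (-1.52, SE 0.15, adjusted p = 3.8e-06). These groups stood apart by nearly a whole log2 unit, but the other *Dnmt3b* probes did not share the direction.

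*Tet2* lay at 3.24, 3.72 and 3.90 in young and 4.03, 4.42 and 4.64 in old mice, and *Asxl1* at 5.39, 5.52 and 5.86 against 6.11, 6.27 and 6.49. Neither pair of groups overlapped, so that 4 of the 8 genes had groups without overlap, beside 48.6% of all genes. The differences were 0.76 (SE 0.17, adjusted p = 0.0011) for *Tet2* and 0.70 (SE 0.13, adjusted p = 2.6e-04) for *Asxl1*. Both depended on the scaling. With the 75th percentile neither was called (0.24 and 0.18), and in the deposited table *Asxl1* differed by -0.045. *Dnmt1* (0.38), *Uhrf1* (0.44), *Dnmt3a* (0.32) and *Ezh2* (0.30) were not called, and all 4 turned below 0 with the 75th percentile and in the deposited table. *Tet3* differed by -0.19 (SE 0.16), and was called as lower with the 75th percentile (-0.71) and in the deposited table (-0.65).

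After irradiation, old and young mice were compared in the same way. None of the 8 genes was called with all arrays (limma), beside 2% of all genes, and none had groups without overlap, beside 5.05%. The lowest adjusted p of the 8 was 0.47, for *Dnmt1*. Of all genes called, 70.2% were higher, against 25.4% with the 75th percentile. The SDs of the old irradiated group ran from 0.25 for *Ezh2* to 1.91 for *Dnmt3b*, where those of the young irradiated group ran from 0.14 for *Tet2* to 0.95 for *Tet1*. Without arrays 4 and 6, 3 of the 8 genes were called where 28.4% of all genes were. *Dnmt3b* at its main probe was 3.21-fold lower in old mice (-1.68, SE 0.36, adjusted p = 0.0050). Its other probes, A_55_P2008874 and A_55_P2130535, differed by 0.021 and 0.33 and were not called. *Tet2* was 2.24-fold higher (1.16, SE 0.24, adjusted p = 0.0043) and *Asxl1* 2.46-fold higher (1.30, SE 0.21, adjusted p = 0.0020). *Tet1* at its main probe differed by -1.56 (SE 0.45, adjusted p = 0.019), which missed the p threshold. Its dimmer probes differed by 0.28 and 0.034. *Dnmt1* (-0.069, SE 0.33), *Uhrf1* (-0.55, SE 0.26) and *Ezh2* (-0.013, SE 0.19) were not called, and relative to the median of all genes, which was 0.34, they differed by -0.41, -0.89 and -0.35.

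**Figure D3:**
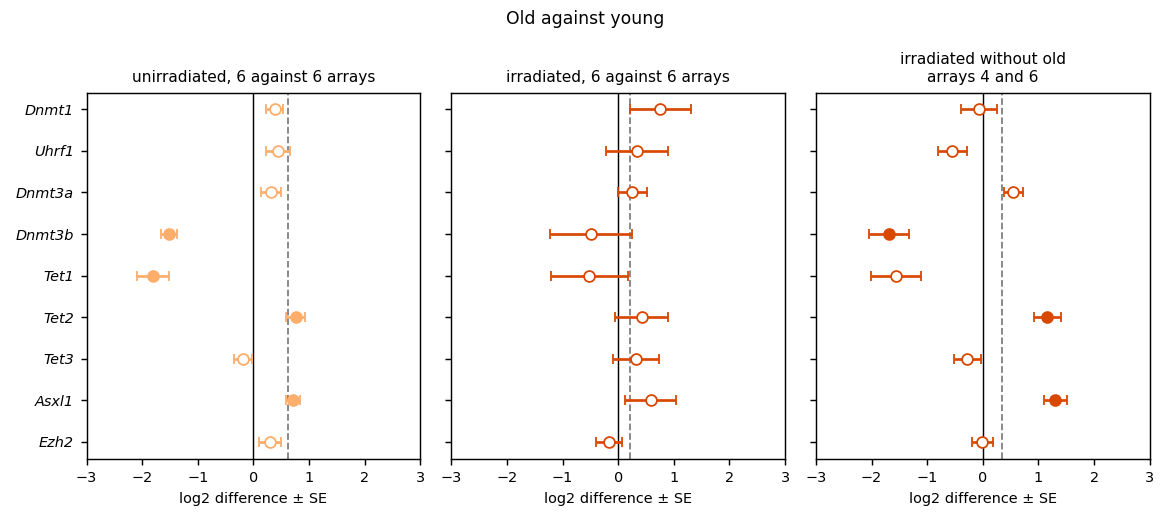
Difference between old and young mice (log2, with SE) for each gene in unirradiated mice, in irradiated mice and in irradiated mice without old arrays 4 and 6, where filled points passed both thresholds and the dashed line is the median of all genes tested. *Tet1* and *Dnmt3b*, at their main probes, lie left of 0 in all panels, and the error bars are widest in the middle panel, which holds arrays 4 and 6.

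With all arrays and the main probes, the order of the means across the 4 groups depended on the gene. It was old unirradiated, young unirradiated, old irradiated and young irradiated for both *Dnmt1* and *Uhrf1*. For *Ezh2* it was old unirradiated, young unirradiated, young irradiated and old irradiated. In these 3 genes neither the unirradiated nor the irradiated ages were set apart by the thresholds. For *Tet1* and *Dnmt3b* the order was young unirradiated, young irradiated, old irradiated and old unirradiated. Of the pairs of groups compared, only the 2 unirradiated groups were set apart by the test. Young unirradiated with old irradiated mice, and young irradiated with old unirradiated mice, were not compared for any gene. *Asxl1* ran from old unirradiated to old irradiated, young unirradiated and young irradiated, and *Tet2* from old unirradiated to young unirradiated, old irradiated and young irradiated. *Tet3* means lay within 1.23 to 1.58, and none of the pairs of groups compared was set apart. *Dnmt3a* means ran from 2.91 in young unirradiated to 3.53 in old irradiated mice, with old unirradiated (3.23) and young irradiated mice (3.27) between them. Several orders rested on arrays 4 and 6. Without them, old irradiated means of *Dnmt1* (2.50), *Uhrf1* (1.25), *Tet1* (0.69), *Dnmt3b* (2.34) and *Tet3* (0.95) were the lowest of each gene. That of *Tet2* (4.30) then lay above young unirradiated mice, and that of *Asxl1* (6.70) above every other group. The order of the unirradiated ages for *Dnmt1*, *Uhrf1* and *Ezh2* also turned with 75th percentile scaling.

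Of the 9 genes, 5 had more than 1 probe, and each probe was also tested on its own over 24130 probes. In young mice 33.1% of all probes were called, in old mice 24.5%, and between the unirradiated ages 62.5%. For *Dnmt3b*, the main probe was lower in unirradiated old than young mice, whereas A_55_P2130535 was higher, at 2.31, 2.40 and 2.84 in young and 2.57, 3.16 and 3.44 in old mice (0.61, SE 0.16, adjusted p = 0.0043). A_55_P2008874 differed by 0.34 (SE 0.15, adjusted p = 0.055). Relative to the median of all probes these 2 differed by -0.030 and -0.30, so the disagreement with the main probe (-2.15) did not rest on scaling.

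The same *Dnmt3b* probes disagreed on radiation. A_55_P2130535 fell by 0.76 in young mice (SE 0.17, adjusted p = 0.0034), to 1.35, 1.69 and 2.30, below every unirradiated young mouse. It fell by 1.40 in old mice (adjusted p = 0.0034; -1.04 without arrays 4 and 6, SE 0.19, adjusted p = 0.0017), to 0.94, 1.95 and 2.38, again without overlap and with arrays 4 and 6 among the lowest rather than the highest. A_55_P2008874 fell by 0.85 in young mice (SE 0.24, adjusted p = 0.013), and 3 of the 6 irradiated young arrays were not well above background for it. In old mice it differed by -0.79 (adjusted p = 0.063), and by -1.16 without arrays 4 and 6 (SE 0.22, adjusted p = 0.0019, called). The main probe was not called for radiation in either age. A single value for *Dnmt3b* therefore depended on the probe, and the mean of its probes differed by -0.19 between the unirradiated ages and by -0.46 between irradiated and unirradiated old mice.

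**Figure D4:**
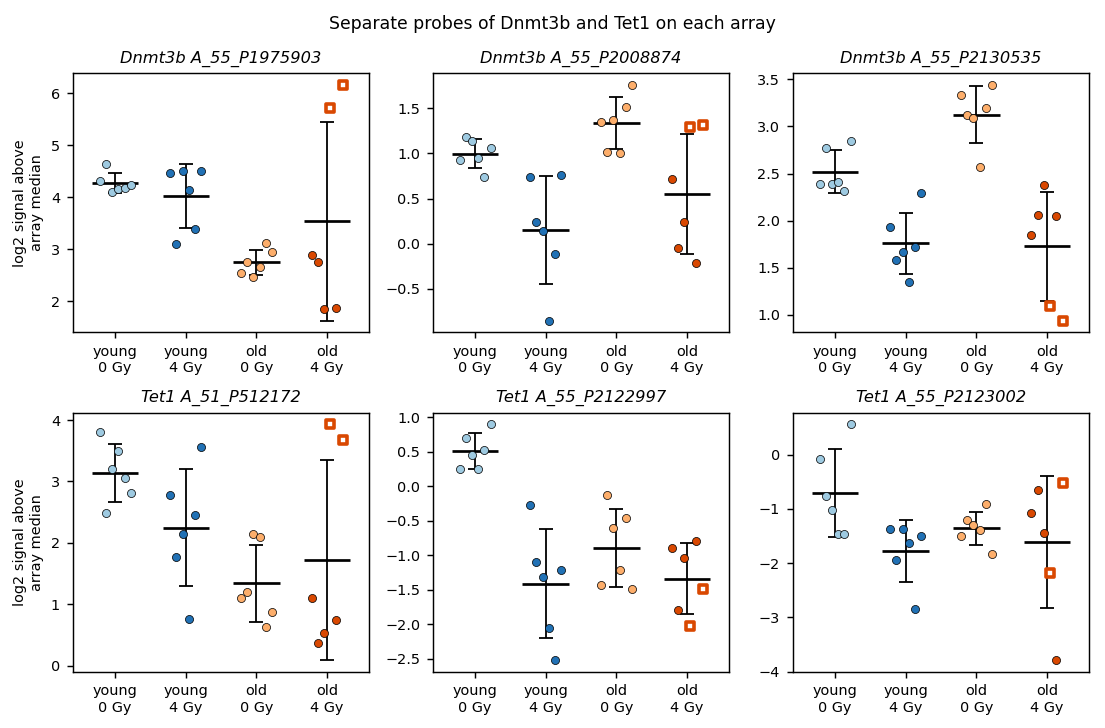
Level of the 3 *Dnmt3b* and 3 *Tet1* probes on each of 24 arrays (log2 signal above the array median) by group of 6 mice, with the mean and SD as bars and old irradiated arrays 4 and 6 as open squares. The first *Dnmt3b* probe is lower in old than in young unirradiated mice and the third is higher, whereas the mean of each *Tet1* probe is lower in old unirradiated mice.

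The *Tet1* probes shared one direction between the unirradiated ages. A_55_P2122997 lay at 0.24, 0.49 and 0.89 in young and -1.49, -0.91 and -0.13 in old mice, without overlap (-1.40, SE 0.24, adjusted p = 1.9e-04). It was well above background on 6 young and 1 old array, so the old values are close to the limit of the array. It also fell by 1.92 in irradiated young mice (SE 0.31, adjusted p = 3.6e-04), to -2.52, -1.26 and -0.27, with 2 of 6 arrays well above background. A_55_P2123002 was well above background on 3 of 6 young unirradiated arrays and on 0 of the old unirradiated and young irradiated ones, and its signal in young unirradiated mice was at least 1.04-fold that of either group.

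All 3 *Tet2* probes were higher in unirradiated old mice, A_55_P2051405 by 1.09 (SE 0.15, adjusted p = 5.6e-05) and A_55_P2074075 by 0.71 (SE 0.18, adjusted p = 0.0024), without overlap. Relative to the median of all probes the 3 differed by 0.12, 0.45 and 0.079. None of them was called for radiation. The 3 *Tet3* probes differed by -0.19, -0.16 and 0.40 between the unirradiated ages and were not called in any of these 3 comparisons. The second *Uhrf1* probe, A_66_P120074, was not well above background on any array and gave no comparison. *Dnmt1*, *Dnmt3a*, *Asxl1* and *Ezh2* had 1 probe each, so no second reading of their transcripts was available here.

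The genes around the members were read from 6 lists of 113 tested genes in all. They gave 8 upregulated and 33 downregulated DEGs in irradiated young mice, with a median difference of -0.42 beside -0.20 over all genes. The 36.3% called were close to the 35.4% of all genes. In old mice 5 were upregulated and 42 downregulated, with a median of -0.76 beside -0.25, so that 41.6% were called beside 24.9% of all genes. Between the unirradiated ages 74 were higher and 5 lower, and between the irradiated ages 0 were called, beside 2% of all genes. Their median between the unirradiated ages was 0.75 beside 0.63 over all genes, and 69.9% were called beside 63.8%. Of all genes called there, 75.8% were higher, against 28.9% with 75th percentile scaling, and the split of these lists was not recomputed under that scaling. Without arrays 4 and 6, the 6 lists, in the order in which they are described, gave 6, 8, 3, 7, 8 and 11 downregulated and 0, 1, 1, 0, 0 and 7 upregulated genes in old mice. In that fit 34.4% of all genes were called.

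Of 11 partners of the methyltransferases, 4 fell in young and 5 in old mice, which is 36.4% beside 35.4% of all genes called and 45.5% beside 24.9%, and none rose. *Usp7*, a deubiquitinase that binds DNMT1 and UHRF1, fell by 0.61 in young and 1.15 in old mice. *Pcna*, the replication clamp that DNMT1 binds, fell by 1.26 in old mice and differed by -0.44 in young mice. The 2 subunits of methionine adenosyltransferase, which makes the methyl donor, differed in turn: *Mat2b* fell by 1.18 in young mice (-0.075 in old) and *Mat2a* by 1.41 in old mice (-0.32 in young).

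Readers of methylated CpG and enzymes of base excision repair gave 6 downregulated genes of 17 in young (35.3%) and 8 in old mice (47.1%). *Ung*, the uracil glycosylase, fell in both ages (-0.79 in old mice), while the readers *Mbd1* (-0.47 and -0.18) and *Mbd2* (0.86 and 0.50) and the stress gene *Gadd45a* (-0.96 and -0.027) were not called. Of 9 genes listed around TET cofactors, not all of them enzymes that supply or use one, 2 fell and 1 rose in young mice (33.3%). In old mice 4 fell (44.4%). *Ogt*, the O-GlcNAc transferase that binds TET proteins, fell by 1.90 in young mice (-0.72 in old), and the isocitrate dehydrogenase subunits *Idh3g* and *Idh3b* fell by 0.91 and 1.19 in old mice (-0.42 and -0.24 in young). *Ogdh*, which consumes 2-oxoglutarate, differed by 0.56 and 0.86.

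Other subunits of Polycomb repressive complex 2 and its demethylases gave 5 downregulated genes of 13 in young mice (38.5%), and 6 downregulated and 1 upregulated in old mice (53.8%). The histone chaperones *Rbbp4* and *Rbbp7* fell by 1.24 and 0.70 in young mice, and *Rbbp7* fell by 1.46 in old mice (*Rbbp4* -0.59). *Ezh1*, the paralogue of *Ezh2*, was not called in either age (-0.39 and -0.50), nor was *Eed* (-0.32 and -0.97). ASXL partners and Polycomb repressive complex 1 gave 6 and 7 downregulated genes of 24 (25% and 29.2%), and *Phc2* (-0.055 and -0.90), *Mbd5* (-0.61 and 1.67) and *Mbd6* (0.21 and 0.11), among the brightest of them, were not called. Of 39 other genes known from clonal hematopoiesis, 7 rose and 10 fell in young mice (43.6%), and 4 rose and 12 fell in old mice (41.0%). *Ptpn11*, the phosphatase SHP2, rose by 1.69 and 1.27, *Prpf8*, a splicing factor, fell by 1.13 in old mice (-0.40 in young), and *Gnas* (0.53 and 0.99) and *Csf3r* (-0.17 and 0.0074) were not called.

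Cell cycle genes were listed because *Dnmt1*, *Uhrf1* and *Ezh2* are known to be transcribed in dividing cells. Of 34 tested, 16 fell and 1 rose in irradiated young mice, with a median difference of -0.71 beside -0.20 over all genes. The 50% called stand beside 35.4% of all genes called and 21.1% called as lower. In old mice 12 fell and 1 rose with all arrays, or 38.2% beside 24.9% of all genes called and 17.4% called as lower. Without arrays 4 and 6, 23 fell and 1 rose, where 34.4% of all genes were called. *E2f2*, *Ube2c* and *Nusap1* fell by 1.53, 1.32 and 2.46 in young mice and differed by -0.91, -0.80 and -1.46 in old mice, and the replication helicase subunit *Mcm4* fell by 0.92 and 1.35.

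Blood cell markers moved in the same comparisons. For every marker list, the background was 35.4% of all genes called in young and 24.9% in old mice. In old mice without arrays 4 and 6 it was 34.4%. All 16 B cell markers fell in young mice, with a median of -2.51, and 15 of 16 fell in old mice, with a median of -3.94. The summed level of the list was 11.1 to 11.5 in unirradiated and 8.19 to 9.58 in irradiated young mice, and 11.3 to 12.3 and 6.55 to 10.2 in old mice (log2). Among them *Cd79a* and *Cd79b*, chains of the B cell receptor complex, fell (-2.83 and -2.68 in young, -4.13 and -4.13 in old mice), as did *Ms4a1*, which encodes CD20 (-2.13 and -3.88). T cell markers fell for 14 of 18 in young mice (summed level 10.3 to 10.8 against 8.75 to 9.97) and for 3 of 18 in old mice (10.4 to 11.7 against 9.55 to 10.5). The part of these lists in the fall of *Dnmt1*, *Uhrf1* and *Ezh2* was not tested. No defining B or T cell marker was under background in any group.

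Platelet markers rose for all 12 genes in both ages, and neutrophil markers rose for 7 of 16 in young and 0 in old mice. Monocyte and macrophage markers rose for 10 of 14 and fell for 1 in young mice, and rose for 1 and fell for 3 in old mice. Natural killer cell markers rose for 5 of 10 in young and 0 in old mice. Red cell precursor markers rose for 4 and fell for 7 of 15 in young mice, and rose for 3 in old mice (3 rose and 8 fell without arrays 4 and 6). Endothelial markers rose for 6 of 8 and 7 of 8, and stem and progenitor markers rose for 5 and fell for 2 of 10 in young mice and rose for 4 and fell for 2 in old mice. Hepatocyte markers rose for 1 of 12 in young and 10 of 12 in old mice, and 13 of the 20 listed were not well above background in any unirradiated old mouse. Without arrays 4 and 6, the old mice gave 16 of 16 B cell, 2 of 18 T cell, 1 of 10 natural killer cell, 3 of 16 neutrophil, 12 of 12 platelet, 12 of 12 hepatocyte and 7 of 8 endothelial markers called, the B and T cell markers as lower and the others as higher. Monocyte and macrophage markers then rose for 3 and fell for 3, and stem and progenitor markers rose for 7 and fell for 2. Between the unirradiated ages, neutrophil markers were higher in old mice for 11 of 16 and lower for 1, where 63.8% of all genes were called. Their median was 1.75, beside 0.63 over all genes. Platelet markers were higher for 11 of 12, and hepatocyte markers lower for 9 of 12 (median -2.40). B cell markers were higher for 8 of 16, stem and progenitor markers for 6 of 10, natural killer cell markers for 1 of 10 and red cell precursor markers for 1 of 15. Higher and lower were 5 and 1 of 14 monocyte and macrophage, 1 and 1 of 18 T cell, and 2 and 2 of 8 endothelial markers.

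For each member tested, the 2 genes with the nearest profile over the 24 arrays were found by the root mean square difference after each gene's own mean was subtracted, among 17773 genes without a missing value. *Uhrf1* lay nearest to *Asf1b* (0.29) and *Cenpw* (0.31), and *Ezh2* nearest to *Mad2l1* (0.20) and *Tdp1* (0.22). *Dnmt1* lay nearest to *Carm1* (0.26) and *Phf8* (0.27), while its own SD over the arrays was 0.89. The measure grows with a gene's own spread, with SDs from 0.53 for *Tet3* to 1.18 for *Tet1*, so it ranks neighbours of 1 gene and not the genes among each other. *Asxl1* lay nearest to *Mcl1* (0.17) and *Setd7* (0.17), and *Tet2* to *St8sia4* (0.18) and *Cic* (0.20). *Tet3* was nearest to *Zfp609* (0.18) and to TC1639827 (0.21), *Dnmt3b* to *Meis3* (0.23) and *Olfr159* (0.31), and *Tet1* to *Lrrc74b* (0.32) and *Igsf9b* (0.40).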

How the data were processed

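The intensity values that the authors deposited came from Agilent Feature Extraction 12.0.2, 1 file per array, with background subtracted and arrays not scaled to each other. The authors' deposited log2 table, already filtered and normalized, served as an alternative, and its exact normalization is not settled by its values. Non-uniform spots were set to missing, and each array was put on a log2 scale relative to the median of its 43020 non-control spots. Probes failing in at least 25% of arrays were dropped (24130 left), the brightest probe stood for a gene (18737), and genes 1.5-fold from their median in at least 20% of arrays (5) were kept (17802). Comparisons used limma 3.58.1, two-sided, on the arrays of the 2 groups, calling a gene where p was below 0.005 and its Benjamini-Hochberg adjusted value, over all genes tested, below 0.05. Each gene here has all its probes described. Lists name their 4 (cell types 3) brightest genes, of which 1 is not reported here. Members and lists were chosen with earlier results of these data known. Mouse numbers were not taken to pair mice. The alternatives that left out low-signal or hepatocyte-high arrays or merged the most alike pair were chosen after seeing the data. That pair was old unirradiated arrays 1 and 6, whose Spearman correlation of 0.995 was the highest between arrays of the same group. The next was 0.991, for young irradiated arrays 2 and 5. Blood counts and quantitative PCR were not analysed here. The test was checked on simulated data. R 4.3.3 and Python 3.11.15 were used.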

Additional observations from a re-analysis of the deposited data

Results flagged for a closer look

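One value of the 36 groups of 6 mice tested (9 genes in 4 groups) lay far from its group. *Ezh2* on young irradiated array 4 was at 0.86, where the other 5 young irradiated mice were between 1.38 and 1.64, and the gap made up 0.66 of the range of the group. Chance alone sets apart about 1 group in 20. Array 4 also had the highest mean hepatocyte marker level of the 24, 9.93, and the lowest cell cycle level, 1.69. Without the arrays of high hepatocyte signal, this one among them, *Ezh2* fell by 0.79 in young mice.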

How the results depend on the processing

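The number of the 8 genes called for radiation in young mice, 3 as reported, was 0 with normexp background correction, 0 with slide as a fixed factor, 1 in the table the authors deposited, 1 in 1 fit of all 24 arrays, 5 with the mean of all probes, 5 with slide as a random block and 5 with every probe tested on its own. In old mice, 1 as reported, it was 0 with normexp, 0 with slide fixed, 3 without the arrays of median signal under 10, 2 without those of high hepatocyte signal and 2 with every probe. Between the unirradiated ages, 4 as reported, it was 2 after quantile normalization, 0 with normexp and 1 in 1 fit of all arrays. Between the irradiated ages, 0 as reported, it was 3 without the arrays of low signal, where 28.4% of all genes were called. All genes called went from 6297 in young mice to 3748 in the deposited table, which has its own set of genes. Between the unirradiated ages they went from 11365 to 6195 after quantile normalization. For normexp, the mean of probes, every probe and 1 fit of all arrays, the background is not given here, so those counts stand without one. The share of all genes called moved too, from 35.4% in young mice to 10.2% with slide fixed and 49.8% with slide random, and from 24.9% in old mice to 2.79% with slide fixed, 34.4% without the arrays of low signal and 40.3% without the hepatocyte arrays. Leaving out 1 array gave 2 to 3, 1 to 1, 4 to 4, 0 to 0 and, for the interaction, 0 to 0. With the replicate number as a block, the counts were 3, 1, 4, 0 and 0 and no count changed, while all genes called were 5070, 3465, 10363, 2 and 0. No comparison had every same-numbered pair correlated over 0.1, so the numbers were not taken to pair the mice: deviations correlated from -0.29 to 0.29 in young mice, -0.20 to 0.34 in old mice, -0.080 to 0.16 between the unirradiated and -0.60 to 0.58 between the irradiated ages, with 3, 4, 1 and 4 of 6 pairs over 0.1 and 1, 3, 0 and 1 of 6 best with their own number.

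Directions turned in the following cases, none of them called in either setting, except that *Asxl1* between the unirradiated ages was called as reported; apart from the settings' own construction, the cause was not tested. Between the unirradiated ages, *Dnmt1*, *Uhrf1*, *Dnmt3a* and *Ezh2* were -0.14, -0.080, -0.20 and -0.22 with the 75th percentile, -0.18, -0.12, -0.24 and -0.26 with the median of well measured probes, and -0.27, -0.17, -0.29 and -0.25 in the deposited table, where *Asxl1* was -0.045. *Dnmt1*, *Dnmt3a* and *Ezh2* were -0.13, -0.14 and -0.078 after quantile normalization and -0.034, -0.15 and -0.073 with normexp. In old mice *Asxl1* was 0.0060 with the 75th percentile, 0.039 with the median of well measured probes and 0.38 with normexp, and the mean of probes gave -0.46 for *Dnmt3b* and -0.10 for *Tet1*. With slide fixed, *Dnmt3b*, *Tet1*, *Tet2*, *Tet3* and *Asxl1* were -0.21, -0.014, 0.11, -0.22 and 0.59. Without the arrays of low signal, *Dnmt3b*, *Tet1*, *Tet3* and *Asxl1* were -0.41, -0.65, -0.44 and 0.42, and without those of hepatocyte signal *Dnmt1* was 0.22. In young mice normexp gave 0.15 for *Dnmt3b* and 0.33 for *Asxl1*, and *Dnmt3b* was 0.21 without the hepatocyte arrays. Between the irradiated ages *Dnmt3a* was -0.0095 with the median of well measured probes, *Dnmt1*, *Uhrf1* and *Tet3* were -0.069, -0.55 and -0.28 without the arrays of low signal, and *Dnmt3a*, *Dnmt3b*, *Tet1* and *Tet2* were -0.12, 0.42, 0.075 and -0.17 without the hepatocyte arrays. The interaction of *Uhrf1* was 0.20, 0.22, 0.20, 0.040 and 0.45 with the 75th percentile, quantile, median, normexp and deposited settings, 0.39 without the hepatocyte arrays and 0.012 with the most alike pair as 1 sample, and that of *Dnmt1* was -0.073 with slide fixed and -0.45 without the arrays of low signal. Leaving out 1 array gave -0.054 to 0.66 for *Tet1* and -0.085 to 0.34 for *Tet3* in old mice, and for *Uhrf1* -0.034 to 0.55 between the irradiated ages and -0.47 to 0.11 for the interaction. The fold filter left no value for *Tet3* under the mean of probes and normexp or for *Asxl1* after quantile normalization. Probes near background limit what can be said of the dimmer *Tet1*, *Tet3* and *Uhrf1* probes.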
